A study of Homo sapiens with 12 samples.

Results

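The 43 genes described here encode the heat shock proteins of the cytosol and mitochondria and the factors that work with them: the HSP90 and HSP70 families, the mitochondrial chaperonin, HSPB1 and HSPB11, the heat shock factors HSF1 and HSF2, J-domain proteins, BAG proteins and HSP90 co-chaperones. They were chosen by gene name, with earlier results of these data known. All 43 were found in the expression table, on 44 of its 60671 rows, because HSPA14 is listed under a pair of Ensembl identifiers. RNA was sequenced from 12 libraries labelled Jurkat, a line derived from a human T cell leukemia, in 4 groups of 3. Control cells (NC) and PTPN21 cells each received either DMSO or VCR for 48 h, which gives the groups NC+DMSO, NC+VCR, PTPN21+DMSO and PTPN21+VCR. NC cells are labelled wild type, whereas the methods of the study describe controls carrying the pHIV7-SFFV-GFP vector. PTPN21 cells overexpress PTPN21, a protein tyrosine phosphatase, which the methods place with a FLAG tag behind the same viral SFFV promoter. VCR is vincristine, which blocks microtubule assembly, and DMSO is its solvent. The dose of VCR used for these libraries is not given in the labels. The labels do not say whether the replicates were separate cultures, so p-values here measure the spread between libraries, which may be technical.

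HSP70 proteins bind unfolded segments of other proteins in a cycle driven by ATP. J-domain proteins deliver the substrates and start ATP hydrolysis, BAG proteins and HSPH1 help nucleotide to leave, and STIP1 passes substrates on to HSP90. HSP90 then folds kinases, hormone receptors and other clients with co-chaperones such as CDC37, AHSA1, PTGES3, FKBP4 and FKBP5. HSF1 is the transcription factor that switches on many of these genes when unfolded proteins accumulate. It binds heat shock elements, in which GAA units and their inverse TTC alternate at a fixed spacing. In leukemic cells, HSP90 and its clients have long been studied as drug targets.

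The promoters of the members on which the results turn are shown because they carry the sequence that HSF1 reads. RefSeq windows on GRCh38.p14, from 250 bases before to 50 bases after a transcript start, were matched for 38 of the 43 members, in 51 windows. A motif of 2 units, GAANNTTC or TTCNNGAA, each of which reads the same on both strands, was present in 31.4% of these windows and in 13.5% of all 35116 windows. A longer motif of 3 alternating units, again 2 bases apart, overlaps the shorter motif by definition. It was present in 13.7% of the 51 member windows, against 0.49% of all windows. These were 1 window each of HSP90AA1, HSP90AB1, HSPA8, HSPD1, DNAJA1, DNAJB6 and CHORDC1, which are named after the search. The windows of FKBP5, DNAJC9, TRAP1, HSPH1 and DNAJC2, whose changes are also described below, held neither motif. In the sequences below, capitals mark the motif of 3 units or, in HSPA1A, HSPA1B and HSPB1, which lack it, the motif of 2 units. These matches describe the sequence and are not measured binding sites.
HSP90AA1 (chr14:102086995-102087294, minus strand): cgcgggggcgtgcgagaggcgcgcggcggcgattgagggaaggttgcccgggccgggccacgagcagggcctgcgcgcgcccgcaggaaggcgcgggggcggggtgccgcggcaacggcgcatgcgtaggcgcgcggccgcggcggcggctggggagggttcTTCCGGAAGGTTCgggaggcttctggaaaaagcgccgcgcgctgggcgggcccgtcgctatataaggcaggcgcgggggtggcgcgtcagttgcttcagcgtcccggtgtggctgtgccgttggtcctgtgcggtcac
HSP90AB1 (chr6:44247693-44247992, plus strand): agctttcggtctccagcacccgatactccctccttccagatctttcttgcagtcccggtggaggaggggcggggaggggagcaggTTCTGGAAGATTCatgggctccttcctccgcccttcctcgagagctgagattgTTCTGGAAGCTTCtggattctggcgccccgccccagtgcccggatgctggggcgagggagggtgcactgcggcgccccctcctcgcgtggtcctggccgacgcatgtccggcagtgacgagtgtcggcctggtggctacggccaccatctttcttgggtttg
HSPA8 (chr11:123062087-123062386, minus strand): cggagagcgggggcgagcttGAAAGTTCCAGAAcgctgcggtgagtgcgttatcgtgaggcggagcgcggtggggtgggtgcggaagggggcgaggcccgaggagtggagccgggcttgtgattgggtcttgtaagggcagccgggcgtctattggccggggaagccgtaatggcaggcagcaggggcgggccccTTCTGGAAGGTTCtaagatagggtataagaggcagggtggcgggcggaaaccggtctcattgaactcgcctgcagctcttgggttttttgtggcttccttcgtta
HSPA1A (chr6:31815293-31815592, plus strand): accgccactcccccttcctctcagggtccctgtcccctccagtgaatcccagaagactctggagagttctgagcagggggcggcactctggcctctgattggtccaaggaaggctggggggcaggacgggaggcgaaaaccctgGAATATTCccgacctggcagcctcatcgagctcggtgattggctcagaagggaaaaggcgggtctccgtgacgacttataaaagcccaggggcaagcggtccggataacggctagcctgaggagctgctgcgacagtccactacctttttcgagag
HSPA1B (chr6:31827488-31827787, plus strand): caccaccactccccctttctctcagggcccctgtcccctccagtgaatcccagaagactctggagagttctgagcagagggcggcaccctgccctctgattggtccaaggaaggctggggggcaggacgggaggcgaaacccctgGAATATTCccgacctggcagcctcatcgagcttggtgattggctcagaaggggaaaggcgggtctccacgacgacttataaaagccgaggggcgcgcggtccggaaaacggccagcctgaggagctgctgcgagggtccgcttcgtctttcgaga
HSPB1 (chr7:76302423-76302722, plus strand): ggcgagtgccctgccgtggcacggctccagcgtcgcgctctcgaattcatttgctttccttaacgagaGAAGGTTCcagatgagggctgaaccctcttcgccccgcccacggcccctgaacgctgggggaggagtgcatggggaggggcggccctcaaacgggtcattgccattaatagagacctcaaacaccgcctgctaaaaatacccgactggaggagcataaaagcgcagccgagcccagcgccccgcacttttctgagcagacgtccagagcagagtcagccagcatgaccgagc
HSP90AA1 and HSP90AB1 each had a marked motif in only 1 of their RefSeq windows. In HSP90AA1 it began 88 bases before the start and in HSP90AB1 the farther match began 165 bases before it. HSPA1A and HSPA1B, which lie next to each other, shared the same marked letters, and the longest run of bases common to their windows was 49.

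The label of the cells was checked against marker genes, and the markers went against it. Of 12 T cell markers, 3 (CD247, CD5 and LCK) were listed at 0 in every library and only 2 had a mean of at least 1 FPKM (a level scaled to gene length and to library depth). CD3E did not exceed 0.146 FPKM, whereas CD3D was 61.8 to 139.7. The erythroid gene HBA1 was at 49.4 to 190.1 FPKM but HBB, the adult beta globin, at 0 to 1.66. Of the epithelial and kidney markers, EPCAM was at 58.4 to 122.7 FPKM and KRT18 at 91.9 to 436.5, and PAX2 was listed at 0 in every library. Further genes were looked up after these values were seen. The fetal globins HBG2 and HBG1 were at 559.7 to 2985 and 187.8 to 709.1 FPKM, HBZ at 35.5 to 368, GATA1 at 13.5 to 106.5 and KLF1 at 1.39 to 39.7. CD28 was at 0 in every library, CD4, LAT and BCL11B stayed below 1 FPKM, and TCF7 was at 0.259 to 1.11. PTPRC was at 8.07 to 33.1 FPKM and TAL1 at 3.23 to 16.5. The libraries are therefore called by their group labels throughout. Within a bulk sample, fewer cells of a type and less RNA per cell cannot be told apart. PTPN21 itself was at 0.0212 to 0.569 FPKM in the NC libraries and 4.34 to 10.5 in the PTPN21 libraries, so the labels of the construct hold. Depth was estimated from the steps between low values as 28720000 to 35900000 fragments in NC libraries and 40940000 to 47780000 in PTPN21 libraries. Steps of 1 and 2 fragments could not be separated with certainty, so 14360000 to 17950000 and 20470000 to 23890000 fragments are not excluded. In every library a smaller share of low values lay near whole steps at these lower depths. With the same step in all libraries, every PTPN21 library was deeper than every NC library, so construct and depth cannot be told apart. Transcripts of the mitochondrial genome made up 11.4% to 11.7% of the summed FPKM in NC+DMSO and 6.21% to 7.03% in NC+VCR. In PTPN21 cells the range was 9.28% to 9.99% without VCR and 6.47% to 7.90% with it.

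Heat shock and co-chaperone transcripts were abundant. Together the members held 2.49% ± 0.134 (SD, n = 3) of the summed FPKM in NC+DMSO and 2.80% ± 0.148 in NC+VCR. In PTPN21 cells the share was 1.99% ± 0.143 with DMSO and 2.19% ± 0.118 with VCR. HSP90AB1, the constitutive cytosolic HSP90, had the highest level on the FPKM scale in every group, followed by its stress-inducible paralog HSP90AA1 in 3 groups. In PTPN21+VCR, HSPA8, the constitutive HSP70, had a mean of 1498 FPKM and HSP90AA1 of 1479, and their libraries overlapped. HSPA2, an HSP70 best known from testis, was at 0 to 0.114 FPKM and was the only member below the mean of 1 FPKM required for testing. The other 42 members, on 43 rows, were tested with limma on log2(FPKM + 1), a scale that understates changes of genes with low FPKM, in a model of all 4 groups. P-values were two-sided and adjusted by Benjamini-Hochberg over 11591 genes, with a threshold of 0.05. The comparisons share groups with each other, so their values are set side by side and not compared as independent.

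**Figure D1:**
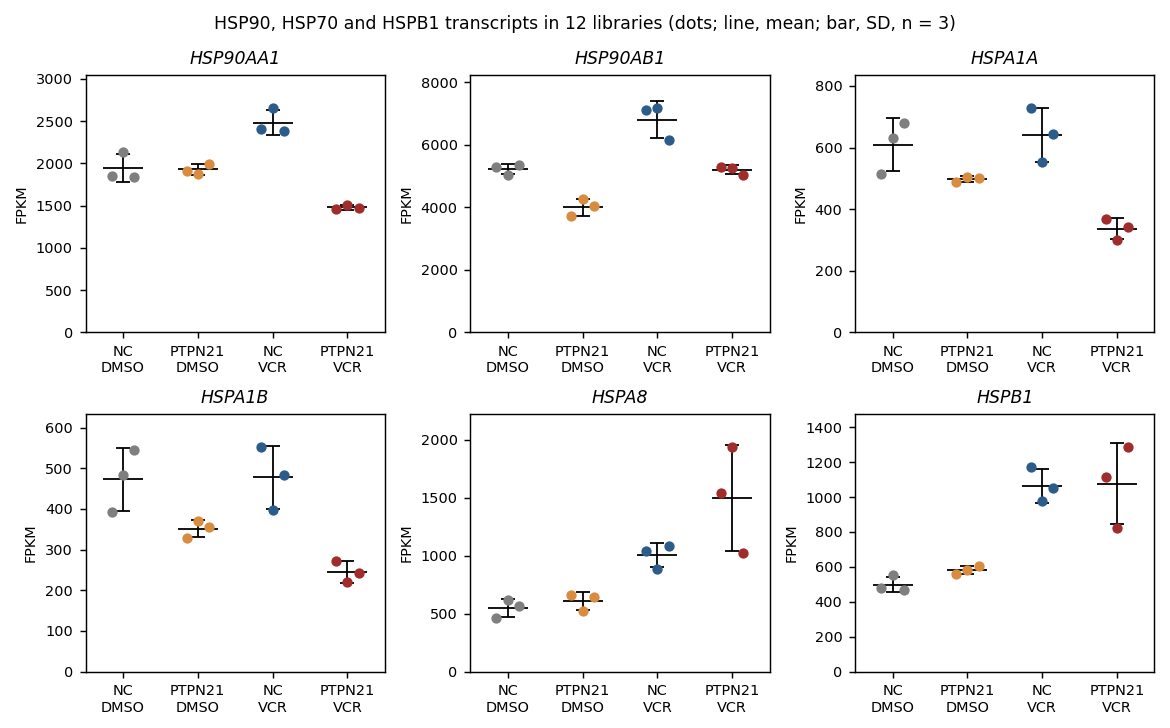
FPKM of HSP90AA1, HSP90AB1, HSPA1A, HSPA1B, HSPA8 and HSPB1 in the 12 libraries (dots), with the mean (line) and SD (bar) of each group of 3. HSP90AA1 was highest in NC+VCR (2383 to 2654 FPKM) and lowest in PTPN21+VCR (1460 to 1510), whereas HSPA8 and HSPB1 were higher in both VCR groups than in both DMSO groups.

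On the deposited scale, NC cells with VCR had more transcript of cytosolic HSP90, HSPA8 and HSPB1 and less of mitochondrial TRAP1 and HSPA9, of HSF1 and of the immunophilins FKBP4 and FKBP5. Of the 43 rows tested, 8 were higher and 12 lower in NC+VCR than in NC+DMSO (limma, adjusted p under 0.05), where 7.91% of all genes tested were higher and 28.3% lower. The groups did not overlap for 25 rows, against 44.1% of all genes. The median log2 fold change was -0.09 over the members and -0.36 over all genes. This split depended on scaling. After median ratio scaling, which brought the median of all genes to -0.03, 17 members were higher and 4 lower, and the share of higher calls among all genes called went from 21.9% to 56.95%. Markers of other cell types moved in the same libraries. The summed FPKM of the epithelial and kidney markers was 150.2 to 226.6 in NC+DMSO and 428 to 528.8 in NC+VCR (237.1 to 260.5 and 490.5 to 504.9 in PTPN21 cells). Most of this was KRT18, whose mean went from 132.6 to 384 FPKM (176.1 to 398.3 in PTPN21 cells). The mean of EPCAM went from 67.9 to 89.8 FPKM (72.3 to 97.7 in PTPN21 cells), and PAX2 stayed at 0. The mean of HBA1 went from 85.4 to 54.2 FPKM (153.6 to 69.8 in PTPN21 cells). The part of these markers in the changes with VCR was not tested.

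In the HSP90 family, both cytosolic forms rose in NC cells. HSP90AA1 (ENSG00000080824) was at 1855, 2136 and 1839 FPKM in NC+DMSO and 2409, 2654 and 2383 in NC+VCR. Every VCR library was above every DMSO library, and the mean was 1.28 times as high (log2 fold change 0.35 ± 0.09 SE, limma adjusted p = 0.00835). HSP90AB1 (ENSG00000096384) was at 5286, 5043 and 5350 FPKM without VCR and 7108, 7166 and 6134 with it, also without overlap (0.38 ± 0.09, limma adjusted p = 0.00700). With only these 2 groups in the fit, the adjusted p of HSP90AA1 was 0.0640 and that of HSP90AB1 0.0532. TRAP1, the HSP90 of mitochondria, went the other way, from 120.9, 148.1 and 138.5 FPKM to 76.8, 72.2 and 93.9 (log2 fold change -0.74 ± 0.13, limma adjusted p = 0.00103). Its change was -0.35 after median ratio scaling, which did not pass the test (adjusted p = 0.0762).

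Among HSP70 proteins, HSPA8 (ENSG00000109971) rose from 459.1, 617.2 and 569 FPKM in NC+DMSO to 1042, 887.5 and 1085 in NC+VCR, 1.83 times the mean level (log2 fold change 0.88 ± 0.20, limma adjusted p = 0.00581). HSPH1, the HSP110 that acts as nucleotide exchange factor, rose from a mean of 59.1 to 81.2 FPKM (0.45 ± 0.16, limma adjusted p = 0.0406). That call held in 8 of 19 alternatives and was lost when any NC+DMSO library, NC+VCR replicate 2 or 3, PTPN21+DMSO replicate 3 or PTPN21+VCR replicate 2 was left out (log2 fold change 0.34 to 0.52 without a library). The stress-inducible HSPA1A was at 513.5, 632.2 and 680 FPKM without VCR and 727.7, 552.9 and 645.4 with it. HSPA1B was at 391.4, 482.9 and 544.2 and at 551, 397 and 483.9 FPKM. The groups overlapped for both genes, and neither passed the test as deposited (limma adjusted p = 0.663 and 0.949). After median ratio scaling both passed, HSPA1A at 0.48 (limma adjusted p = 0.0183) and HSPA1B at 0.42 (0.0424), and after TPM scaling their signs turned (-0.03 and -0.09). HSPA4, another nucleotide exchange factor, fell from 144.4, 131.7 and 133.8 to 99.8, 92.0 and 98.6 FPKM (-0.49 ± 0.09, limma adjusted p = 0.00188), but its change was -0.09 after median ratio scaling (adjusted p = 0.548).

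HSPB1, the small heat shock protein HSP27, had the largest log2 fold change of the higher members. It was at 479.8, 550.9 and 466.1 FPKM in NC+DMSO and 1170, 974.6 and 1050 in NC+VCR, so the lowest VCR library was well above the highest DMSO library (log2 fold change 1.09 ± 0.14, limma adjusted p = 2.02e-04). This call held in all 19 alternatives. HSPB11, which despite its name belongs to the intraflagellar transport complex, fell from 467.5, 480.2 and 416.3 to 292, 316.9 and 325.3 FPKM (-0.54 ± 0.09, limma adjusted p = 0.00101), and by -0.14 after median ratio scaling (adjusted p = 0.450). HSF1 transcripts were at 13.5, 14.8 and 20.03 FPKM in NC+DMSO and 7.79, 9.44 and 10.7 in NC+VCR (-0.72 ± 0.22, limma adjusted p = 0.0246). Without NC+DMSO replicate 3 the adjusted p was 0.0939 and without NC+VCR replicate 1 it was 0.0757, and after median ratio scaling it was 0.249.

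The mitochondrial chaperonin pair HSPD1 and HSPE1, which fold proteins in the matrix, did not pass the test. HSPD1 was at 364.3, 325.3 and 362.7 FPKM in NC+DMSO and 355.7, 295 and 269.4 in NC+VCR, and HSPE1 at 280.3, 275.3 and 135.7 and at 144.6, 179.6 and 183.4. Their groups overlapped, and their limma adjusted p-values were 0.182 and 0.290. After median ratio scaling, the log2 fold changes turned from -0.20 to 0.20 for HSPD1 and from -0.38 to 0.02 for HSPE1. HSPE1 passed with an adjusted p of 0.0267 when NC+DMSO replicate 3 was left out, and HSPD1 with 0.0469 without NC+VCR replicate 1. Of the 5 mitochondrial members, TRAP1 and HSPA9 fell, where 28.3% of all genes did, and HSPD1, HSPE1 and the J-domain protein DNAJA3 did not pass the test. The median log2 fold change was -0.38 over the 5 and -0.36 over all genes. With median ratio scaling 0 of the 5 passed in limma, and HSPA9 was at -0.22 (adjusted p = 0.296) in place of -0.62. The share of transcripts from the mitochondrial genome was lower in the same libraries, and its part in these changes was not tested.

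J-domain proteins and co-chaperones went in both directions. DNAJC9, a J-domain protein that also binds histones H3 and H4, had the lowest p-value of all members. It was at 149.2, 137.5 and 127.5 FPKM in NC+DMSO and 70.2, 65.8 and 63.7 in NC+VCR (log2 fold change -1.04 ± 0.10, limma adjusted p = 2.30e-05), and this held in all 19 alternatives. Histone transcripts went from 0.381% to 0.454% of the summed FPKM in NC+DMSO to 0.123% to 0.142% in NC+VCR, and their part in this change was not tested. STIP1, the adaptor between HSP70 and HSP90, rose from 146.8, 163.4 and 153.6 to 275.5, 195.2 and 221 FPKM (0.56 ± 0.13, limma adjusted p = 0.00504). The immunophilin FKBP5, known as a target and inhibitor of the glucocorticoid receptor, fell from 38.0, 29.5 and 46.2 to 14.7, 14.2 and 16.5 FPKM (-1.25 ± 0.21, limma adjusted p = 9.82e-04). FKBP4, its counterpart that helps the receptor reach the nucleus, fell from 100.7, 103.7 and 111.9 to 63.4, 57.2 and 63.0 FPKM (-0.78 ± 0.11, limma adjusted p = 2.81e-04). BAG2, an inhibitor of the ubiquitin ligase CHIP, fell from 6.99, 6.60 and 6.77 to 2.65, 4.33 and 2.20 FPKM (-0.97 ± 0.20, limma adjusted p = 0.00350). STIP1, FKBP4, FKBP5 and BAG2 kept their calls in every alternative in which they were tested. BAG3, the stress-inducible BAG protein, was at 7.53 to 11.1 FPKM without VCR and 7.81 to 12.4 with it and did not pass (limma adjusted p = 0.652). The remaining calls, named after their values were seen, were DNAJA1 (0.38) and DNAJC2 (0.31) among the higher and DNAJC5 (-0.96), HSPA9 (-0.62), DNAJA2 (-0.53) and HSPA14 (-0.48) among the lower members. The 4 lower genes lost their calls after median ratio scaling, with log2 fold changes of -0.68, -0.22, -0.13 and -0.10, and DNAJA1 and DNAJC2 lost theirs after TPM scaling (limma adjusted p = 0.0668 and 0.125).

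**Figure D2:**
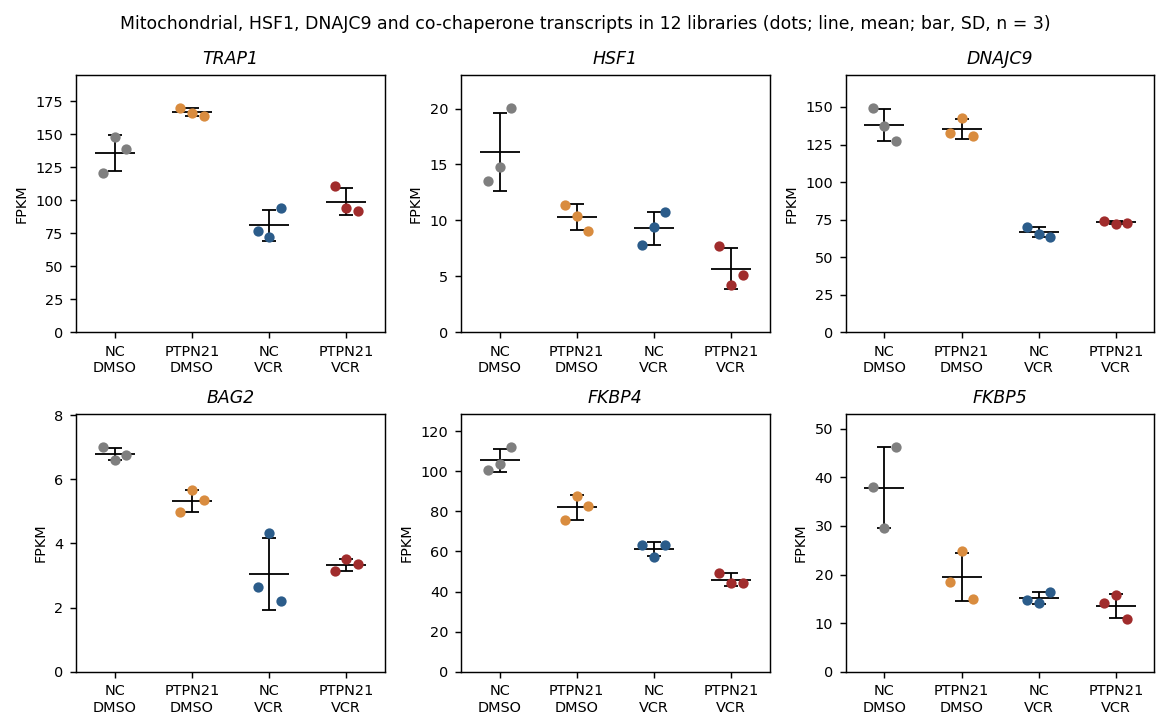
FPKM of TRAP1, HSF1, DNAJC9, BAG2, FKBP4 and FKBP5 in the 12 libraries (dots), with the mean (line) and SD (bar) of each group of 3. DNAJC9 was at 127.5 FPKM or more in every DMSO library and at 74.4 or less in every VCR library, and FKBP5 was highest in NC+DMSO (29.5 to 46.2).

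In PTPN21 cells, VCR was followed by more HSPA8, HSPB1 and DNAJB4 transcript and less HSPA1A, HSPA1B and HSP90AA1. Of the 43 rows, 7 were higher and 11 lower in PTPN21+VCR than in PTPN21+DMSO (limma, adjusted p under 0.05), against 9.22% and 19.3% of all genes. The groups did not overlap for 28 rows, against 50.4% of all genes. The median log2 fold change was -0.09 over the members and -0.17 over all genes, and -0.01 over all genes after median ratio scaling, which gave 10 higher and 7 lower members. That scaling moved the share of higher calls among all genes called from 32.3% to 51.5%.

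HSP90AA1 was at 1912, 1876 and 1996 FPKM in PTPN21+DMSO and 1460, 1510 and 1467 in PTPN21+VCR. It was lower in every VCR library (log2 fold change -0.38 ± 0.09, limma adjusted p = 0.00677), the opposite of its direction in NC cells, although after median ratio scaling the change was -0.20 and did not pass (adjusted p = 0.304). HSP90AB1 rose from 3708, 4259 and 4033 to 5299, 5263 and 5042 FPKM (0.38 ± 0.09, limma adjusted p = 0.00803), with the same log2 fold change to 2 decimals as in NC cells. HSPA1A was at 488.2, 504.7 and 499.8 FPKM without VCR and 366.8, 299.3 and 341.6 with it (-0.57 ± 0.13, limma adjusted p = 0.00677). HSPA1B was at 328.3, 370.2 and 354.8 and at 272.7, 219.2 and 243.5 FPKM (-0.52 ± 0.15, limma adjusted p = 0.0204). The groups did not overlap for either gene. HSPA1B lost its call without PTPN21+DMSO replicate 2 or 3 or PTPN21+VCR replicate 2 or 3 (adjusted p = 0.0673, 0.0587, 0.0812 and 0.0526), without the filter (0.0590) and after median ratio scaling, at -0.34 (0.0922), and HSPA1A kept it in all 19 alternatives.

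HSPA8 went from 664.5, 524.3 and 646.9 FPKM to 1542, 1933 and 1020, so the VCR libraries differed widely among themselves but all lay above the DMSO libraries (log2 fold change 1.25 ± 0.20, limma adjusted p = 8.44e-04). HSPH1 rose from 41.4, 57.3 and 45.2 to 83.7, 76.6 and 69.7 FPKM (0.67 ± 0.16, limma adjusted p = 0.00726). HSPB1 rose from 559.9, 582.3 and 603.1 to 1117, 825.6 and 1284 FPKM (0.86 ± 0.14, limma adjusted p = 0.00109). STIP1, which links HSP70 to HSP90, rose from a mean of 132.9 to 207.9 FPKM (0.64 ± 0.13, limma adjusted p = 0.00280). DNAJB4, a J-domain protein close to DNAJB1, was at 3.14, 6.68 and 6.16 FPKM without VCR and 16.4, 13.0 and 13.7 with it (1.33 ± 0.24, limma adjusted p = 0.00155). In NC cells, DNAJB4 was at 7.52 to 11.0 FPKM without VCR and 12.3 to 14.6 with it, also without overlap, and did not pass the test (log2 fold change 0.50, limma adjusted p = 0.112). The difference between the DNAJB4 changes in PTPN21 and NC cells did not pass (0.82 ± 0.33, limma adjusted p = 0.302).

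Members of several roles were lower. DNAJC9 fell from 132.4, 142.7 and 130.7 to 74.4, 72.2 and 73.1 FPKM (log2 fold change -0.88 ± 0.10, limma adjusted p = 7.74e-05), and histone transcripts were at 0.451% to 0.488% without VCR and 0.155% to 0.165% with it. HSPB11 fell by 0.73 on the log2 scale, FKBP4 by 0.82, TRAP1 by 0.75 and HSPA4 by 0.51, each past the test under all 19 alternatives. HSF1 was at 11.4, 10.4 and 9.08 FPKM in PTPN21+DMSO and 7.72, 4.26 and 5.12 in PTPN21+VCR (-0.78 ± 0.22, limma adjusted p = 0.0204). Leaving out PTPN21+DMSO replicate 1 or 2 or PTPN21+VCR replicate 2 or 3 ended this call (adjusted p = 0.0714, 0.0556, 0.0855 and 0.0634). FKBP5 was at 18.5, 24.8 and 15 FPKM without VCR and 14.1, 15.7 and 10.9 with it, and did not pass (-0.47, limma adjusted p = 0.117). The difference between the FKBP5 changes in PTPN21 and NC cells did not pass either (0.78, limma adjusted p = 0.284). HSPD1 and HSPE1 were close to their levels without VCR, with 95% intervals of the log2 fold change of -0.24 to 0.25 and -0.54 to 0.63. BAG3 did not pass (limma adjusted p = 0.198). The remaining calls, named after their values were seen, were DNAJA1 (0.28) among the higher and STUB1 (-0.65), whose groups overlapped, and HSPA9 (-0.59) among the lower members. STUB1 after median ratio scaling was at -0.47 and HSPA9 at -0.41 and neither passed (limma adjusted p = 0.143 and 0.0581), and DNAJA1 did not pass after TPM scaling (0.0924).

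**Figure D3:**
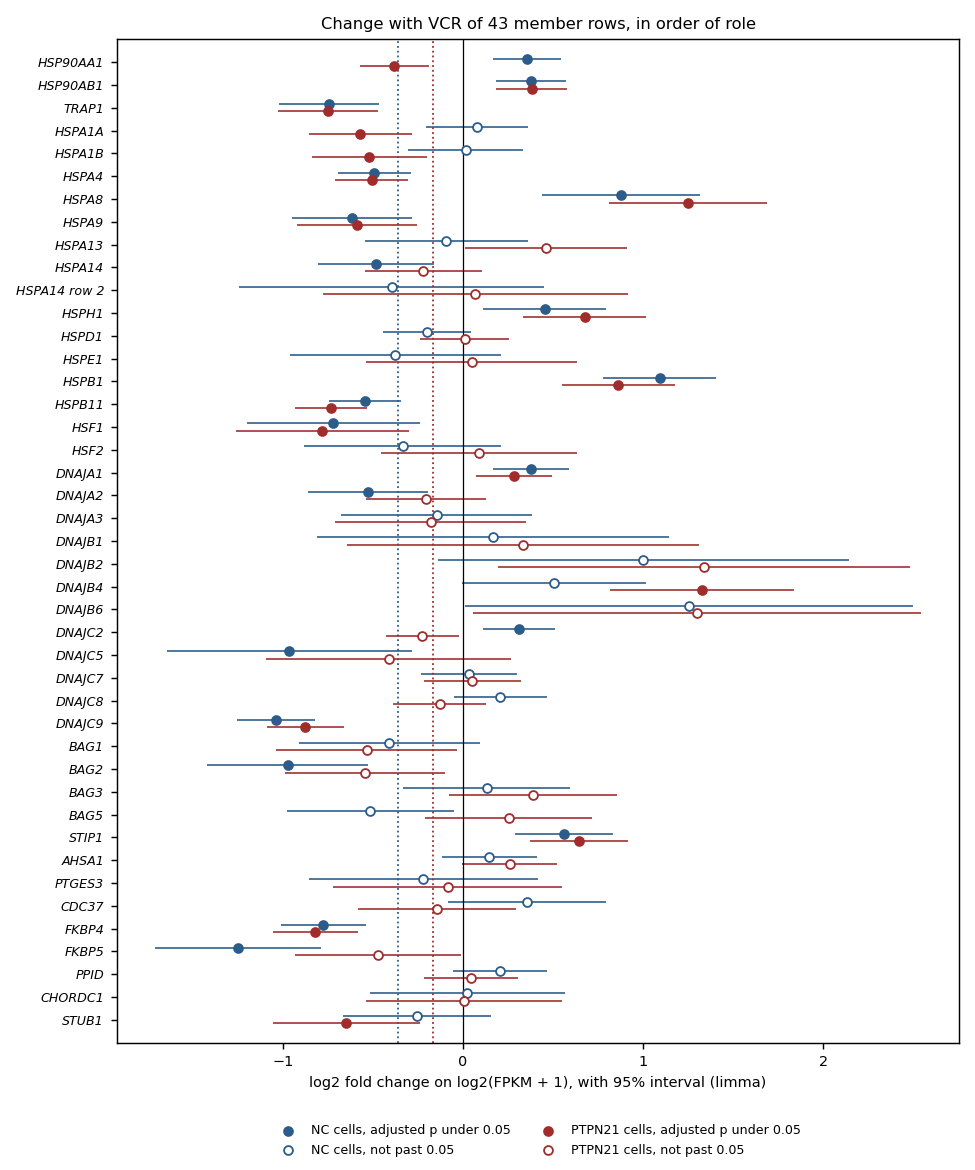
Log2 fold change with VCR, on log2(FPKM + 1), of the 43 tested member rows in NC cells (blue) and PTPN21 cells (red), with 95% intervals from limma. Filled points had an adjusted p under 0.05, and dotted lines mark the median of all 11591 genes (-0.36 in NC and -0.17 in PTPN21 cells). HSP90AA1 lies at 0.35 in NC and at -0.38 in PTPN21 cells, and HSP90AB1 at 0.38 in both.

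Under VCR, cells overexpressing PTPN21 had less HSP90AA1, HSPA1A and HSPA1B transcript than NC cells. Of the 43 rows, 4 were lower in PTPN21+VCR than in NC+VCR, against 0.82% of all genes tested, and 0 were higher, against 1% (limma, adjusted p under 0.05). At an unadjusted p under 0.05, 12 members were lower and 3 higher. These were 15 of 43 rows, against 1980 of 11591 genes in either direction. The groups did not overlap for 14 rows, against 22.5% of all genes. The median log2 fold change was -0.13 over the members and 0.03 over all genes. With median ratio scaling, 3 members were lower and 0 higher, and the share of higher calls among all genes called went from 55.0% to 43.1%.

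HSP90AA1 was at 2409, 2654 and 2383 FPKM in NC+VCR and 1460, 1510 and 1467 in PTPN21+VCR, 1.68 times lower (log2 fold change -0.74 ± 0.09, limma adjusted p = 0.00244). HSPA1A went from 727.7, 552.9 and 645.4 to 366.8, 299.3 and 341.6 FPKM, 1.91 times lower (-0.93 ± 0.13, limma adjusted p = 0.00613). In both genes the libraries of the 2 groups were far apart, and the calls held in all 19 alternatives. HSPA1B was at 551, 397 and 483.9 FPKM in NC+VCR and 272.7, 219.2 and 243.5 in PTPN21+VCR, 1.95 times lower (-0.95 ± 0.15, limma adjusted p = 0.00974). It held in 18 of 19 alternatives, and the adjusted p was 0.0557 without PTPN21+VCR replicate 2. The HSPA1A and HSPA1B values are not independent. Of the stretches of 31 bases in HSPA1A transcripts, 73.6% also occur in HSPA1B, so fragments could have been assigned to either gene. For HSP90AA1, 25.6% of such stretches occur in other genes, with 16.8% in the pseudogene HSP90AA2P, and for HSP90AB1 35.7%.

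DNAJC2, a J-domain protein bound to the ribosome, was at 330, 310.3 and 283.9 FPKM in NC+VCR and 241.6, 219.9 and 216.2 in PTPN21+VCR (log2 fold change -0.44 ± 0.09, limma adjusted p = 0.0368). This call held in 7 of 19 alternatives and was lost on leaving out any library but NC+DMSO replicate 2 or 3 or NC+VCR replicate 3 (adjusted p up to 0.129). HSP90AB1 was at 7108, 7166 and 6134 against 5299, 5263 and 5042 FPKM and DNAJA1, a partner of cytosolic HSP70, at 368.8, 399.7 and 334.4 against 282.9, 285.1 and 256.8. Neither pair of groups overlapped, but with a limma adjusted p of 0.0536 neither gene passed. HSP90AB1 passed when NC+DMSO replicate 3 or NC+VCR replicate 3 was left out (adjusted p = 0.0319 and 0.0376). HSPA8 was higher on average in PTPN21+VCR (log2 fold change 0.53 ± 0.20) but overlapped NC+VCR and did not pass (limma adjusted p = 0.197). HSF1 did not overlap and did not pass (-0.65 ± 0.22, limma adjusted p = 0.153). HSPB1 was alike in mean, with a 95% interval of the log2 fold change of -0.32 to 0.31, and HSPH1, HSPD1, HSPE1, BAG3 and FKBP5 did not pass (limma adjusted p = 0.503 to 0.984).

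Without VCR, HSP90AB1 and FKBP5 were lower in the cells with the construct. Of the 43 rows, 2 were lower in PTPN21+DMSO than in NC+DMSO, against 3.69% of all genes, and 0 were higher, against 2.65% (limma, adjusted p under 0.05). At an unadjusted p under 0.05, 12 members were lower and 2 higher. These were 14 of 43 rows, against 2968 of 11591 genes in either direction. The groups did not overlap for 22 rows, against 33.4% of all genes. The member median was -0.28 and that of all genes -0.14. After median ratio scaling, which moved the median of all genes to 0.03, FKBP5 alone was lower, no member was higher, and the share of higher calls among all genes called went from 41.8% to 75.9%. After TPM scaling, which moved the median of all genes to -0.26, 9 members were lower, and with the filter at 5 FPKM 5 were. The share of all genes called under these settings was not counted.

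HSP90AB1 was at 5286, 5043 and 5350 FPKM in NC+DMSO and 3708, 4259 and 4033 in PTPN21+DMSO (log2 fold change -0.39 ± 0.09, limma adjusted p = 0.0311). FKBP5 was at 38.0, 29.5 and 46.2 against 18.5, 24.8 and 15 FPKM (-0.93 ± 0.21, limma adjusted p = 0.0300). The libraries of the groups did not overlap for either gene, but both calls depended on single libraries. Without NC+DMSO replicate 1 or 3 or PTPN21+DMSO replicate 1 or 3, neither gene passed, with adjusted p of 0.0846 to 0.139 for HSP90AB1 and 0.0792 to 0.121 for FKBP5. HSP90AB1 also missed the threshold without PTPN21+VCR replicate 1 (0.0504). The number of members past the threshold was then 0 without each of the first 4 libraries and 1 without the last, and it was 4 without NC+DMSO replicate 2. HSP90AA1, by contrast, was at 1855, 2136 and 1839 FPKM in NC+DMSO and 1912, 1876 and 1996 in PTPN21+DMSO, with a 95% interval of the log2 fold change of -0.20 to 0.18 around -0.01, which became 0.19 after median ratio scaling. HSPA1A (513.5, 632.2 and 680 against 488.2, 504.7 and 499.8 FPKM) and HSPA1B (391.4, 482.9 and 544.2 against 328.3, 370.2 and 354.8) were lower in every PTPN21+DMSO library but did not pass (limma adjusted p = 0.201 and 0.105). HSF1 did not pass either (-0.59 ± 0.22, limma adjusted p = 0.124), although its groups did not overlap. For HSPA8, HSPH1, HSPD1, HSPE1 and BAG3 the limma adjusted p was 0.224 to 0.946.

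**Figure D4:**
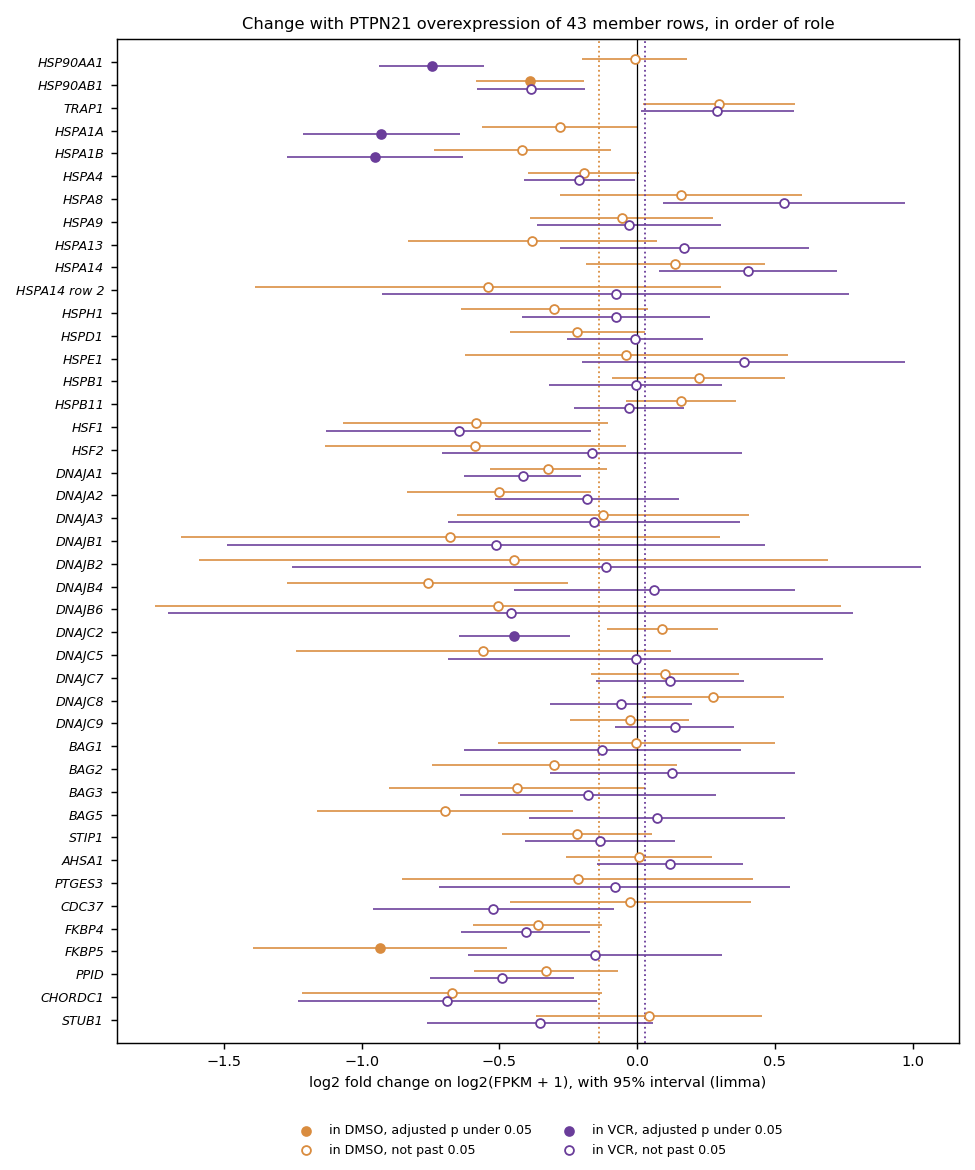
Log2 fold change with PTPN21 overexpression, on log2(FPKM + 1), of the 43 tested member rows in DMSO (orange) and in VCR (purple), with 95% intervals from limma. Filled points had an adjusted p under 0.05, and dotted lines mark the median of all genes (-0.14 in DMSO and 0.03 in VCR). HSP90AA1 was near 0 in DMSO (-0.01) and at -0.74 in VCR, and HSPA1A and HSPA1B were at -0.28 and -0.42 in DMSO and at -0.93 and -0.95 in VCR.

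The change of HSP90AA1 with VCR differed between NC and PTPN21 cells. The interaction of PTPN21 and VCR, which is the log2 fold change with VCR in PTPN21 cells minus that in NC cells, was -0.74 ± 0.12 (95% interval -1.005 to -0.47, limma adjusted p = 0.0484). HSP90AA1 was the only member of 43 past the threshold, against 0.129% of all genes (15 genes). At an unadjusted p under 0.05 there were 4 members with a negative and 3 with a positive value. These were 7 of 43 rows, against 1624 of 11591 genes. HSP90AB1, which shares much of its sequence and function, had an interaction of 0.00 (95% interval -0.27 to 0.28), and the difference between the paralogs was not tested. HSPA1A had a value of -0.65 (95% interval -1.05 to -0.25) and HSPA1B of -0.53 (-0.99 to -0.08), which did not pass (limma adjusted p = 0.189 and 0.286). The HSP90AA1 call passed in 4 of 18 alternatives. Leaving out any library except NC+DMSO replicate 2 or 3 ended it, with adjusted p between 0.0537 and 0.141, while the value stayed between -0.81 and -0.69. After median ratio scaling it was -0.95 (adjusted p = 0.0823).

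A list of 16 members whose transcripts rise on heat shock, some from a high constitutive level, was counted across the comparisons. The list was made with earlier results of these data known. It held HSP90AA1, HSP90AB1, HSPA1A, HSPA1B, HSPA8, HSPH1, HSPD1, HSPE1, HSPB1, DNAJA1, DNAJB1, BAG3, CHORDC1, AHSA1, STIP1 and FKBP4. With VCR, 7 were higher and 1 lower in NC cells, where 7.91% and 28.3% of all genes were, and 6 were higher and 4 lower in PTPN21 cells, against 9.22% and 19.3%. The counts after median ratio scaling were 10 higher and 1 lower in NC cells and 7 higher and 2 lower in PTPN21 cells. After TPM scaling they were 5 and 1, and 5 and 4. Median ratio scaling also moved the share of higher calls among all genes called, from 21.9% to 56.95% in NC and from 32.3% to 51.5% in PTPN21 cells. The shares of all genes called after either scaling were not counted. As deposited, the lower member in NC cells was FKBP4, and in PTPN21 cells HSP90AA1, HSPA1A and HSPA1B joined it. Under VCR, 3 of the 16 (HSP90AA1, HSPA1A and HSPA1B) were lower with PTPN21, against 0.82% of all genes. None was higher, against 1% (limma, adjusted p under 0.05). At an unadjusted p under 0.05, 7 of the 16 were lower and 1 higher, against 1980 of 11591 genes in either direction. The values of HSPA1A and HSPA1B are not independent, as given above. The median log2 fold change of the 16 with VCR was 0.16 in NC cells and 0.27 in PTPN21 cells, against -0.36 and -0.17 over all genes. DNAJB1, BAG3, HSPD1, HSPE1, AHSA1 and CHORDC1 passed in no comparison as deposited. DNAJB1, AHSA1 and CHORDC1 are, respectively, the main stress-induced partner of HSP70, an activator of the HSP90 ATPase and a zinc-binding HSP90 co-chaperone.

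The level of DNAJB1 differed by the replicate number of the labels as well as by group. It was at 133.5, 154.1 and 59.8 FPKM in NC+DMSO and 180.3, 146.2 and 66.3 in NC+VCR. In PTPN21 cells it was at 76.8, 88.9 and 43.3 FPKM with DMSO and 109, 107.2 and 50.9 with VCR. The library numbered 3 was the lowest in all 4 groups and below each of the 8 libraries with other numbers. Within each number, DNAJB1 was lower in the PTPN21 than in the NC library, both with DMSO and with VCR. Of 11591 genes, 66 (0.569%) had their lowest value in replicate 3 of every group and 2 (0.0173%) had all 4 of these below every other library. HSPA1A showed no such order, with its replicate 3 highest in NC+DMSO and between the others elsewhere. The 95% interval of DNAJB1 for PTPN21 against NC under VCR ran from -1.49 to 0.46. DNAJB6, a J-domain protein that prevents aggregation, was also scattered, at 114, 21.2 and 115.1 FPKM in NC cells without VCR and 183.5, 159.8 and 133.8 with it, and at 46.4, 87.8 and 23.6 and then 90.5, 143.6 and 115.4 in PTPN21 cells. It did not pass with VCR in either cell type although its groups did not overlap (limma adjusted p = 0.106 and 0.110).

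The remaining members passed the test in no comparison and are given by their range over the 12 libraries. BAG1 was at 26.6 to 60.7 FPKM and its replicate 2 was the highest library in every group, which was the case for 0.94% of all genes. BAG5 was at 2.33 to 6.33 FPKM, without overlap between PTPN21+DMSO and NC+DMSO (log2 fold change -0.70, limma adjusted p = 0.0694). HSF2, the second heat shock factor, was at 4.09 to 11.04 FPKM, and the HSP70 relative HSPA13 at 1.94 to 3.90. Among J-domain proteins, DNAJC7 was at 140.3 to 194.7 FPKM, DNAJC8 at 291.1 to 407.7 and DNAJB2 at 0.388 to 13.25. The HSP90 co-chaperone PPID was lower in every PTPN21+VCR library (114.3, 108.7 and 130.2 FPKM) than in NC+VCR (180.5, 164.7 and 152.1) and did not pass (limma adjusted p = 0.0615). CDC37, which brings kinases to HSP90, was at 165.8 to 334.4 FPKM and PTGES3, the cochaperone p23, at 54.2 to 121. The other HSPA14 row was at 1.06 to 6.28 FPKM.

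**Figure D5:**
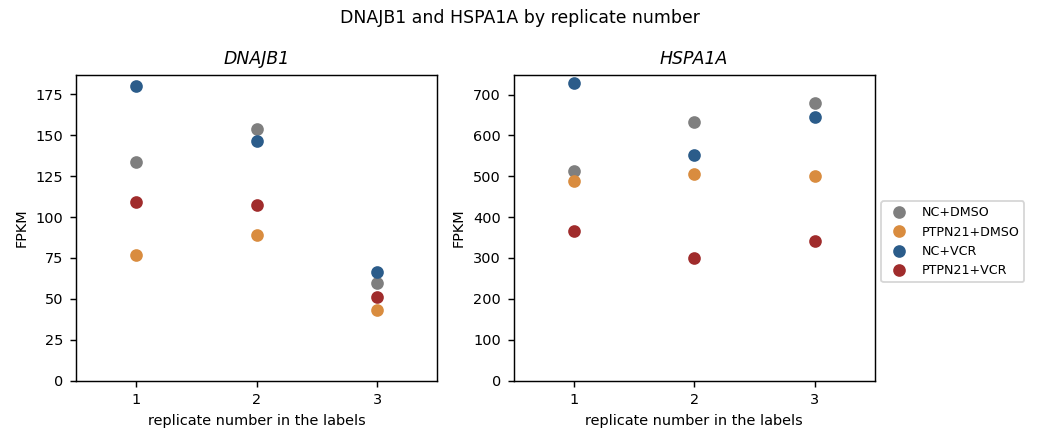
FPKM of DNAJB1 and HSPA1A by the replicate number of the labels, with a point for each library coloured by group. DNAJB1 was at 43.3 to 66.3 FPKM in the 4 libraries numbered 3 and at 76.8 to 180.3 in the other 8. HSPA1A was at 299.3 to 366.8 FPKM in PTPN21+VCR, below every library of the other groups, and its NC+DMSO and NC+VCR libraries overlapped.

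Of 54 further genes of the cytosolic and mitochondrial chaperone system, listed by function with earlier results of these data known, 40 were tested. In NC cells 3 rose and 8 fell with VCR, and in PTPN21 cells 3 rose and 9 fell (limma, adjusted p under 0.05). Among all genes, 7.91% rose and 28.3% fell in NC cells and 9.22% and 19.3% in PTPN21 cells. The list's counts after median ratio scaling were 6 higher and 1 lower in NC cells and 4 higher and 3 lower in PTPN21 cells. That scaling moved the share of higher calls among all genes called from 21.9% to 56.95% in NC and from 32.3% to 51.5% in PTPN21 cells. DNAJC12, a J-domain protein that assists aromatic amino acid hydroxylases, rose in both, from 34.9, 26.8 and 19.7 to 76.6, 71.3 and 79.7 FPKM in NC cells (log2 fold change 1.49 ± 0.19, limma adjusted p = 1.81e-04) and from 36.4, 28.4 and 43.3 to 108, 110.4 and 121.6 FPKM in PTPN21 cells (1.65 ± 0.19, limma adjusted p = 9.79e-05). HSPA6, an HSP70 that is almost silent until heat shock, rose in NC cells from 3.10, 4.29 and 2.81 to 16.5, 6.37 and 10.7 FPKM (1.39 ± 0.29, limma adjusted p = 0.00323). In PTPN21 cells HSPA6 was at 4.69, 3.89 and 3.27 FPKM without VCR and 8.06, 5.85 and 5.79 with it, also without overlap, and was not among the calls. The interaction of PTPN21 and VCR passed in limma for 0 of the 40 genes, HSPA6 among them. The third gene was DNAJB5 in NC cells (1.27), and in PTPN21 cells DNAJB5 (1.07) and the import receptor TOMM34 (0.54). The lower genes included the mitochondrial protease subunit CLPP (-0.57 and -0.59), the myosin chaperone UNC45A (-0.83 and -1.02) and the HSP110 relative HSPA4L (-0.61 and -0.61) in NC and PTPN21 cells. With PTPN21, DNAJC19, a subunit of the mitochondrial import motor, was higher in DMSO (0.58 ± 0.15, limma adjusted p = 0.0437), and in VCR 0 genes passed in limma. At an unadjusted p under 0.05 in VCR, 4 of the 40 were higher and 6 lower, against 1980 of 11591 genes in either direction. All of these genes were named after their values were seen.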

How the data were processed

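RNA-seq was analysed from 12 libraries, with groups and replicate numbers taken from the labels. The authors deposited FPKM values, computed by an external company, for 60671 rows. The submitters' processing notes list fastp, Bowtie2 and mm10, a mouse build, although the rows carry human Ensembl identifiers. The counting program is not given in the sources used here. Positions came from GENCODE release 29 (GRCh38), which holds 58453 of the rows, and promoters from RefSeq (GRCh38.p14).

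The members and lists were chosen with earlier results of these data known. Deposited FPKM values were put on the scale log2(FPKM + 1). The filter, a mean over the libraries of 1 FPKM or more, left 11591 genes, which were fitted with limma 3.58.1 in R 4.3.3 (intensity trend, 4 group means, no block, 5 comparisons). The fit was tested on simulated data with changes put into some genes and no shift of all genes, so that test does not bear on scaling. In each comparison at most 12 members past the threshold, by lowest adjusted p, were named, together with HSF1, HSPA1A, HSPA1B, HSP90AA1, HSP90AB1, HSPA8, HSPD1, HSPE1, DNAJB1, HSPH1, BAG3 and FKBP5. Promoters shown for their motif of 2 units were chosen after values were seen.

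Results were recomputed with 0.1 as pseudocount, without the filter, with a filter at 5 FPKM, with median ratio scaling, with TPM scaling, with the replicate number as a block, with only the 2 groups compared, and without each library in turn. Depth was estimated from 8708 single-exon genes. The range searched was widened after a first search gave uneven multiples, and 44.9% to 54.2% of low values lay near whole steps, against 20% by chance. Replicates of a group correlated with Pearson's r of 0.939 to 0.976 across genes. The gene name match and the motif counts were made in Python 3.11.15 with pandas.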

Additional observations from a re-analysis of the deposited data

Results flagged for a closer look

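The response of HSP90AA1 to VCR differed between the NC and the PTPN21 cells in the test of the difference itself. The change with PTPN21 under VCR minus the change under DMSO was -0.74 on the log2 scale (-0.7365 ± 0.124 SE, limma adjusted p = 0.0484), since HSP90AA1 was higher with VCR in all 3 NC+VCR libraries and lower in all 3 PTPN21+VCR libraries than in the DMSO libraries of the same cells. It passed in 4 of 18 alternatives, with adjusted p-values between 0.0237 and 0.141. Estimated depth is higher in all PTPN21 libraries and cannot be told apart from the construct. No other member passed the same test.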

How the results depend on the processing

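Counts of members past the threshold stayed within 1.5 times for VCR in PTPN21 cells under every alternative. For VCR in NC cells the count was 20 and fell to 12 with only the 2 groups in the fit. For PTPN21 under VCR it was 4, against 8 under the filter of 5 FPKM, and 2 to 6 when a library was left out (2 without PTPN21+VCR replicate 2). For PTPN21 in DMSO it was 2, against 5 under that filter, 9 with TPM scaling, 1 with median ratio scaling, 0 with no filter or with only the 2 groups, and 0 to 4 when a library was left out. For the interaction it was 1, against 0 with no filter, the filter of 5 FPKM or median ratio scaling, and 0 to 1 when a library was left out. The replicate numbers did not pair the libraries: the deviations of 18 same-number pairs correlated at -0.145 to 0.0583 and 2 of 12 libraries correlated best with their own number. With the replicate block, the count for PTPN21 in DMSO was 1, where DNAJB1 passed (adjusted p = 0.0411, 0.0411 to 0.703 over its alternatives), and for the interaction 0. The share of all genes called under each alternative was not counted, and the cause of these shifts was not tested. Depth was only estimated, so no counting interval is given for single values.

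Of 526 values of named genes under the other settings, 479 kept direction and side of the threshold, 29 dropped below it, 7 rose past it and 11 changed sign. Of 924 values without a library, these numbers were 837, 46, 4 and 37. The sign changes were all in genes that had not passed as deposited. With TPM scaling, NC+VCR against NC+DMSO gave -0.0292 for HSPA1A and -0.0933 for HSPA1B, HSPD1 with VCR in PTPN21 cells was -0.0103 and the HSF1 interaction 0.0275. With median ratio scaling, VCR in NC cells gave 0.20 for HSPD1 and 0.0228 for HSPE1, PTPN21 in DMSO gave 0.19 for HSP90AA1 and 0.16 for HSPE1, and the interaction was -0.21 for HSP90AB1, -0.00685 for HSPD1 and -0.0499 for DNAJB1. When a library was left out, VCR in NC cells ranged from -0.0393 to 0.18 for HSPA1A, -0.12 to 0.14 for HSPA1B, -0.25 to 0.59 for DNAJB1 and -0.0100 to 0.32 for BAG3. VCR in PTPN21 cells ranged from -0.0535 to 0.0418 for HSPD1 and -0.15 to 0.23 for HSPE1. PTPN21 under VCR ranged from -0.15 to 0.0287 for HSPH1 and -0.10 to 0.10 for HSPD1. PTPN21 in DMSO ranged from -0.0463 to 0.0613 for HSP90AA1 and -0.38 to 0.16 for HSPE1. The interaction ranged from -0.0691 to 0.0501 for HSP90AB1, -0.27 to 0.10 for HSF1 and -0.26 to 0.58 for DNAJB1.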
